A study of Danio rerio with 6 samples.

Results

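Keratin and claudin genes were examined in RNA-seq of zebrafish larval heads. The members were the genes whose name in the count table begins with krt or cldn, together with cyt1 and cyt1l, a pair of keratins under older names, and without cldnk, a claudin of myelin. Of 32520 genes in the table, 57 met this rule, 24 by the keratin names and 33 by the claudin names. The 54 that had 10 or more counts in at least 3 of the 6 libraries were kept, 22 by the keratin names and 32 by the claudin names, and all 54 were among the 24765 genes tested. The 3 members left out had few reads. In the order of replicates 1, 2 and 3, used for all values given by library, krt93 drew 6, 6 and 15 counts in wild-type heads and 4, 8 and 8 in mutant heads. krt95 had 2, 1 and 1 counts in wild-type and 0, 0 and 1 in mutant, and cldn10l2 had 13, 2 and 6 in wild-type and 8, 3 and 7 in mutant. Just inside the limit were cldng, with 9, 15 and 11 counts in wild-type and 19, 23 and 1 in mutant, and cldnd, with 14, 24 and 28 in wild-type and 9, 15 and 15 in mutant. The names also catch 3 genes of other kinds. krtcap2 encodes a subunit of the oligosaccharyltransferase, which attaches sugars to proteins in the endoplasmic reticulum, and cldnd1a and cldnd1b encode claudin domain-containing proteins. They are counted with the family they were matched to unless a count without them is given.

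Keratins are intermediate filament proteins that assemble as pairs of an acidic type I and a basic type II chain and give epithelial cells their mechanical strength. Claudins are membrane proteins with 4 spans that seal the space between neighbouring epithelial or endothelial cells at tight junctions, and some of them form pores for selected ions. The skin of a zebrafish larva is a thin double sheet, an outer periderm over basal keratinocytes, with ionocytes and mucous cells set into it, and claudins are also used in gut, kidney, brain vessels and myelin.

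The libraries came from heads at 3 days post fertilization of larvae with both copies of srrm4 carrying the y712 allele, the homozygous mutants, and of wild-type larvae of the same parentage, with 3 libraries of each genotype numbered 1 to 3. srrm4 encodes a neural splicing regulator that promotes the inclusion of very short exons. The labels name no other allele and no agent. The labels do not say whether replicates were separate clutches or how many heads were pooled, so p-values measure the spread between these libraries, which may be partly technical.

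srrm4 itself measured 14.6, 53.6 and 55.1 CPM in wild-type and 18.7, 58.7 and 57.9 CPM in mutant, where CPM is the read count brought to a common library size by the trimmed mean of M-values (TMM). The groups overlapped, and the mutant-minus-wild-type log2 difference was 0.13 with a standard error (SE) of 0.62, so gene-level counts do not check the genotype labels. Total counts ran from 52510621 to 101032166 per library, and the replicate 1 libraries had the fewest in each genotype. The replicate 1 libraries also stood apart in content. The 23 posterior hox genes of the gene list, which pattern the trunk and tail, summed to 135 and 120 CPM in replicate 1. In the other 4 libraries they summed to 14.6 to 21.8 CPM. Skeletal muscle markers summed to 48425 and 48461 CPM in replicate 1 against 9527 to 16021 in the others, and neuron markers to 1370 and 1372 against 2443 to 2684. The same replicate numbers deviated together in both genotypes. Each genotype comparison is therefore also given with the replicate number as a block, which compares same-numbered libraries with each other. For srrm4 the blocked edgeR fit gave 0.18 (SE 0.06), with an unadjusted p of 0.0255 and an adjusted p of 0.939. Its mutant library was higher in each pair, by 0.36, 0.13 and 0.07 on the log2 scale.

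No keratin and no claudin passed the test between genotypes. With edgeR's quasi-likelihood test and Benjamini-Hochberg adjustment, 0 of 22 keratins and 0 of 32 claudins were called at an adjusted p under 0.05, against 0% of the 24765 genes tested. With the replicate block edgeR again called 0 of 22 and 0 of 32, against 0% of all genes. At an unadjusted p under 0.05 the fit without the block held 0 keratins, 0 claudins and 70 of all genes, and the blocked fit held 1 keratin and 1 claudin, against 4.6% of all genes, or 1138. DESeq2 with the block called 0 keratins and 0 claudins against 0.0727% of all genes, or 18, and limma-voom with the block, like DESeq2 and limma-voom without it, called 0 genes in all. The 3 mutant libraries lay all above or all below the 3 wild-type libraries in 0 keratins and in 1 claudin, cldnd, against 2.04% of all genes. In the blocked fit 11 keratins were higher and 11 lower in mutant, with a median log2 difference of 0.01. For claudins the split was 20 to 12 and the median 0.02, beside -0.001 for all genes tested. Without the pair of replicate 1 the claudin split turned to 14 higher and 18 lower, and the median to -0.023.

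**Figure D1:**
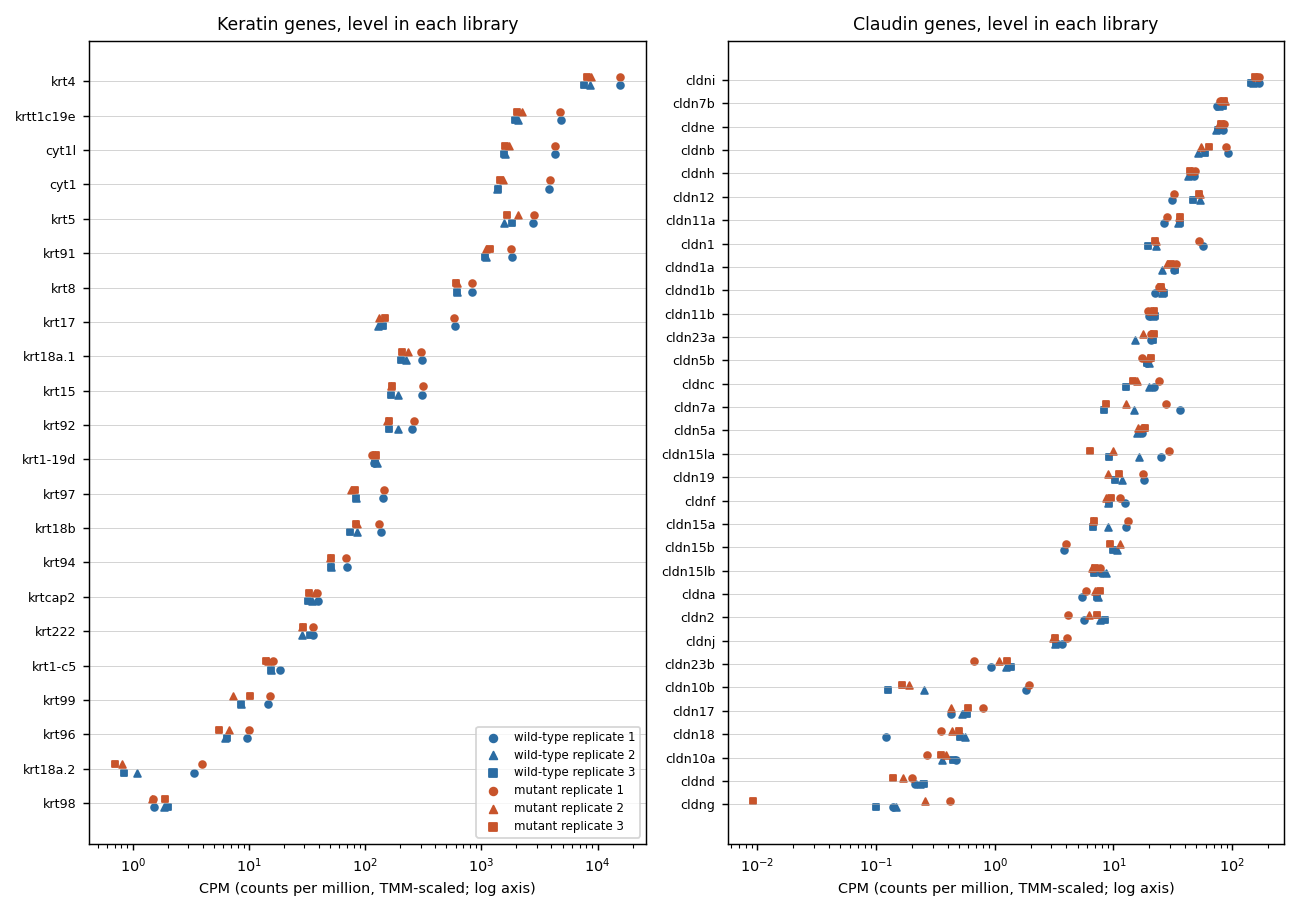
Level of each keratin (left) and claudin (right) in each of the 6 libraries, in CPM on a log axis, with wild-type in blue, mutant in orange and the marker shape giving the replicate number. The circles of replicate 1 lie to the right of the other libraries for most keratins, and the colours overlap within each replicate number.

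The precision of this comparison differed between the families. In the blocked fit the 95% interval of the genotype difference lay within 1.5-fold in either direction for 22 of 22 keratins, for 24 of 32 claudins and for 19502 of 24765 genes tested. These intervals treat replicate numbers as pairs and cover the spread within pairs only. In the fit without the block the SE was far larger for genes that differed by replicate number, 0.61 for cyt1 against 0.04 with the block. Values measured in whole heads cannot separate fewer cells of a type from less RNA per cell.

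The periderm keratins of the gene list, krt4, krt5, krt17, krt92, cyt1 and cyt1l, summed to 27434, 13379 and 12803 CPM in wild-type and to 27596, 14445 and 13170 CPM in mutant. The replicate 1 libraries of both genotypes were thus the highest and close to each other, and the other libraries lay from 12803 to 14445 CPM. In the blocked fit 5 of the 6 were higher and 1 lower in mutant, 0 of 6 at an unadjusted p under 0.05, with a median log2 difference of 0.05. Their replicate 1 against replicates 2 and 3 log2 ratios had a median of 1.17.

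krt4 (ENSDARG00000017624), a keratin of the larval surface layer whose promoter is widely used to mark it, measured 15673, 8532 and 7720 CPM in wild-type and 15753, 8866 and 8153 CPM in mutant. The genotypes overlapped, with all 3 mutant libraries slightly above the wild-type library of the same number. With the block, edgeR gave a log2 difference of 0.05 (SE 0.03) and an adjusted p of 0.939.

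cyt1 and cyt1l encode type I keratins of the embryonic surface layer. cyt1 measured 3821, 1358 and 1392 CPM in wild-type and 3892, 1523 and 1438 CPM in mutant, and cyt1l measured 4317, 1590 and 1554 CPM in wild-type and 4292, 1716 and 1614 CPM in mutant. Replicate 1 was the high library of both genes in both genotypes, and the genotypes overlapped. The blocked log2 differences were 0.08 (SE 0.04) for cyt1 and 0.05 (SE 0.04) for cyt1l.

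krt5 encodes a type II keratin and krt17 a type I keratin of the periderm list. krt5 measured 2780, 1579 and 1832 CPM in wild-type and 2814, 2053 and 1658 CPM in mutant, and its pairs went in different directions, with log2 differences of 0.02, 0.38 and -0.14 in replicates 1, 2 and 3. krt17 measured 589, 129 and 144 CPM in wild-type and 580, 132 and 147 CPM in mutant. Its same-numbered libraries differed by at most 0.04 on the log2 scale, and its replicate 1 libraries were far above the others. krt92 had 254, 191 and 162 CPM in wild-type and 265, 155 and 160 CPM in mutant, with a blocked log2 difference of -0.09 (SE 0.07).

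krtt1c19e, the keratin used to mark basal keratinocytes in zebrafish, measured 4886, 2085 and 1932 CPM in wild-type and 4792, 2229 and 2020 CPM in mutant. Replicate 1 was again highest in both genotypes, and the genotypes overlapped, with a blocked log2 difference of 0.04 (SE 0.04). The simple epithelial keratins form the pair found in single-layered epithelia, with krt8 as type II and the krt18 genes as type I. krt8 measured 825, 618 and 619 CPM in wild-type and 839, 614 and 611 CPM in mutant, and krt18a.1 measured 311, 223 and 205 CPM in wild-type and 304, 236 and 209 CPM in mutant. Their same-numbered libraries were close, and the blocked log2 differences were -0.0018 (SE 0.03) and 0.03 (SE 0.04). krt18a.2 had 3.36, 1.1 and 0.844 CPM in wild-type and 3.92, 0.805 and 0.700 CPM in mutant, low in 4 libraries and higher in both replicate 1 libraries.

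The keratin with the smallest unadjusted p between genotypes was krt1-c5. It measured 18.6, 15.6 and 15.6 CPM in wild-type and 16.3, 14.6 and 14.1 CPM in mutant. Each mutant library was below the wild-type library of its number, and the groups overlapped because mutant replicate 1 exceeded wild-type replicates 2 and 3. The blocked log2 difference was -0.14 (SE 0.05), with an edgeR unadjusted p of 0.0357 and an adjusted p of 0.939. Over the other ways of fitting the data its difference ran from -0.21 to -0.06 with adjusted p from 0.715 to 0.999999. krt91, a type I keratin that neighbours cyt1 and krt17, measured 1837, 1087 and 1080 CPM in wild-type and 1813, 1104 and 1177 CPM in mutant. krt97 measured 143, 83.6 and 83.5 CPM in wild-type and 144, 75.5 and 81.5 CPM in mutant. Both again had replicate 1 highest with genotypes that overlapped. krt222 stayed between 28.9 and 35.9 CPM and krtcap2 between 32.5 and 39.0 CPM over the 6 libraries. Over all 22 keratins the blocked differences ran from -0.16 (krt98) to 0.08 (krt5).

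**Figure D2:**
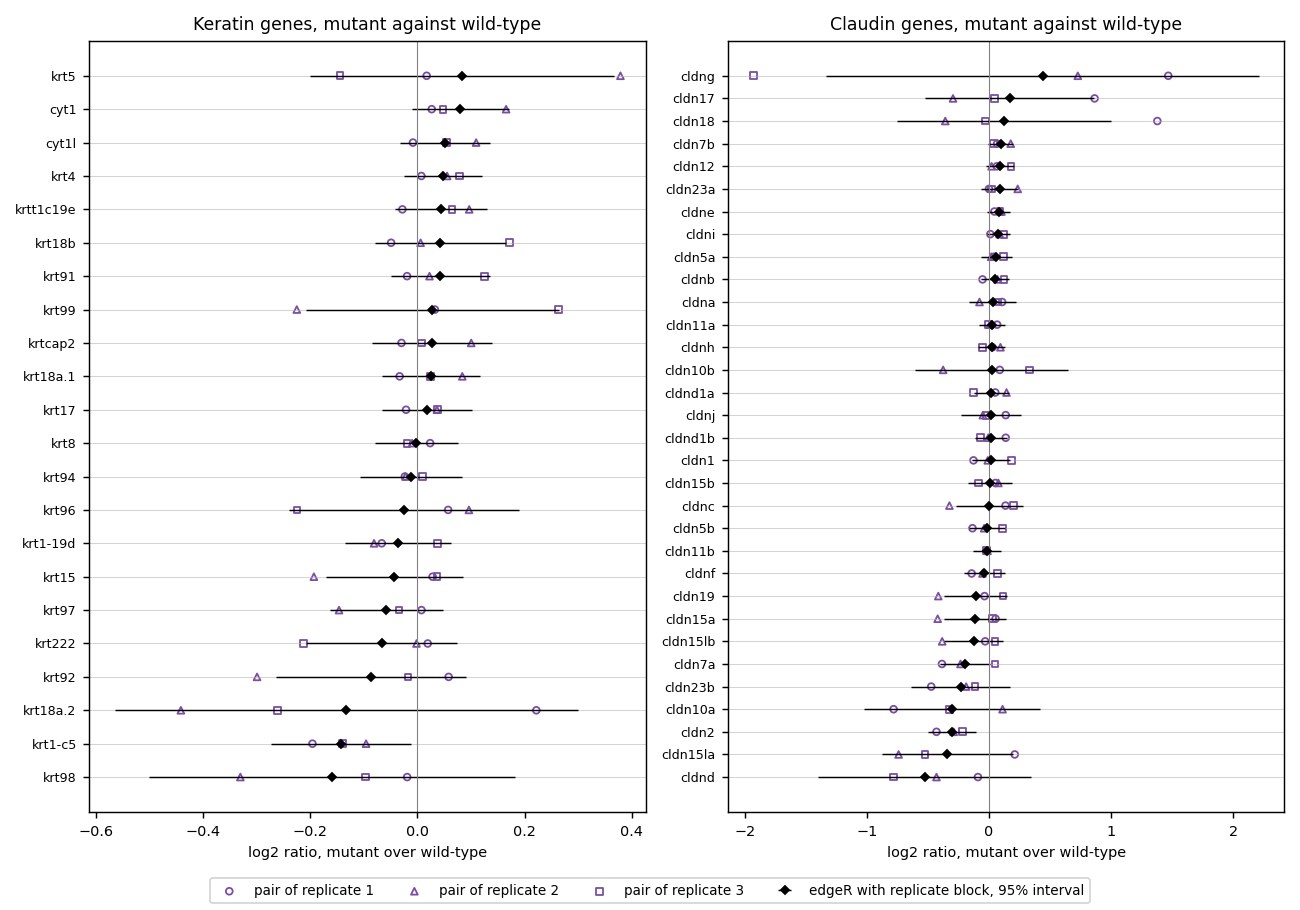
Log2 ratio of mutant over wild-type for each keratin (left) and claudin (right), with open markers for the 3 same-numbered pairs and a diamond with its 95% interval for the blocked edgeR fit. The keratin diamonds lie between -0.16 and 0.08, and the claudin diamonds between -0.53 (cldnd) and 0.44 (cldng), on a wider axis.

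Among claudins, the 7 epidermal claudins of the gene list (cldn1, cldna, cldnb, cldne, cldnf, cldni and cldn7b) summed to 494, 391 and 397 CPM in wild-type and to 492, 418 and 425 CPM in mutant. In the blocked fit 6 were higher and 1 lower in mutant, none at an unadjusted p under 0.05 in edgeR, with a median log2 difference of 0.05. cldnb, a claudin of epidermis and of the migrating lateral line primordium, measured 92.8, 51.7 and 58.6 CPM in wild-type and 89.5, 54.3 and 63.9 CPM in mutant. cldn1, whose mouse counterpart is needed for the water barrier of skin, measured 57.2, 22.9 and 19.5 CPM in wild-type and 52.4, 22.7 and 22.2 CPM in mutant. Both had their high libraries in replicate 1 of each genotype, and their genotypes overlapped.

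cldni, cldne and cldn7b stayed within narrower ranges. cldni measured 167, 151 and 143 CPM in wild-type and 169, 160 and 156 CPM in mutant, cldne 83.5, 72.7 and 75.3 CPM in wild-type and 86.1, 78.1 and 80.2 CPM in mutant, and cldn7b 74.8, 76.8 and 83.8 CPM in wild-type and 78.3, 86.9 and 86.0 CPM in mutant. In all 3 pairs of each gene the mutant library was the higher, and the groups overlapped. The blocked log2 differences were 0.07, 0.08 and 0.09 (SE 0.04 for each). All 3 pairs were higher in mutant in 6 of 32 claudins, 2 of 22 keratins and 3245 of 24765 genes tested. They were all lower in 4 claudins, 2 keratins and 3431 genes tested. cldnh stayed between 42.3 and 48.7 CPM over the 6 libraries. None of cldni, cldne and cldn7b reached an unadjusted p of 0.05 in the blocked edgeR fit, where p was 0.105, 0.0843 and 0.0725.

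The pore-forming claudins of the gene list counted 7 members, cldn2, cldn10a, cldn10b, cldn15a, cldn15b, cldn15la and cldn15lb. In the blocked fit 5 were lower and 2 higher in mutant, 1 of them at an unadjusted p under 0.05 and none at an adjusted p under 0.05 in edgeR, with a median log2 difference of -0.13 against -0.001 for all genes. The medians of the separate pairs were 0.05, -0.38 and -0.08 in replicates 1, 2 and 3, so pair 1 had the other sign. Beside these, 7 of 8 pronephros and intestine markers were lower in mutant in the same fit, with pair medians of 0.10, -0.46 and -0.13. Their summed level was 396 to 1961 CPM in wild-type and 366 to 1978 CPM in mutant. Their part in the claudin values was not tested.

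cldn2, which in mammals forms a channel for small cations and water, measured 5.62, 7.67 and 8.52 CPM in wild-type and 4.17, 6.27 and 7.32 CPM in mutant. Each mutant library was below the wild-type library of its number, by -0.43, -0.29 and -0.22 on the log2 scale, and the groups overlapped. The blocked difference was -0.30 (SE 0.08) with an edgeR unadjusted p of 0.00804 and an adjusted p of 0.939, and the adjusted p ran from 0.679 to 0.999999 over the other ways of fitting the data.

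cldn15la, a claudin used to mark the intestinal epithelium of zebrafish, measured 25.2, 16.4 and 9.14 CPM in wild-type and 29.2, 9.82 and 6.36 CPM in mutant. The mutant was higher in pair 1 and lower in pairs 2 and 3, by 0.21, -0.74 and -0.52 on the log2 scale, and the replicate 1 libraries were the highest of each genotype. cldn15lb measured 7.84, 8.68 and 6.79 CPM in wild-type and 7.67, 6.65 and 7.03 CPM in mutant, and cldn10a, at under 1 CPM in all 6 libraries, had a blocked log2 difference of -0.30 (SE 0.30). cldn7a, outside the lists, measured 36.2, 14.9 and 8.30 CPM in wild-type and 27.7, 12.7 and 8.60 CPM in mutant, with a blocked difference of -0.20 (SE 0.09).

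cldnd was the only member whose genotypes did not overlap. It measured 0.214, 0.234 and 0.254 CPM in wild-type and 0.199, 0.168 and 0.138 CPM in mutant, all mutant libraries being lower. These levels rest on 9 to 28 counts per library, and the blocked log2 difference was -0.53 with an SE of 0.37 and an edgeR adjusted p of 0.939. cldng had 0.137, 0.146 and 0.0998 CPM in wild-type and 0.421, 0.257 and 0.00921 CPM in mutant, the last from 1 count, and its blocked log2 difference was 0.44 with an SE of 0.73. cldn18, at 0.122 to 0.565 CPM, and cldn17, at 0.425 to 0.798 CPM, were likewise low in every library, and their blocked differences were 0.12 (SE 0.37) and 0.17 (SE 0.29). cldn23b was at 0.665 to 1.38 CPM with a blocked difference of -0.23 (SE 0.17).

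The neural and vascular claudins of the gene list (cldn5a, cldn5b, cldn11a, cldn11b and cldn19) summed to 101, 105 and 105 CPM in wild-type and to 101, 101 and 109 CPM in mutant. cldn5a and cldn5b are counterparts of mammalian claudin 5, the main claudin of the blood-brain barrier, and cldn11a and cldn11b of claudin 11, found in myelin. cldn5a measured 17.4, 15.8 and 17.0 CPM in wild-type and 17.8, 16 and 18.4 CPM in mutant, and cldn11a measured 26.8, 35.3 and 36.5 CPM in wild-type and 28.1, 35.4 and 36.5 CPM in mutant. In the blocked edgeR fit 2 of the 5 were higher and 3 lower in mutant, 0 at an unadjusted p under 0.05, with a median log2 difference of -0.02.

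**Figure D3:**
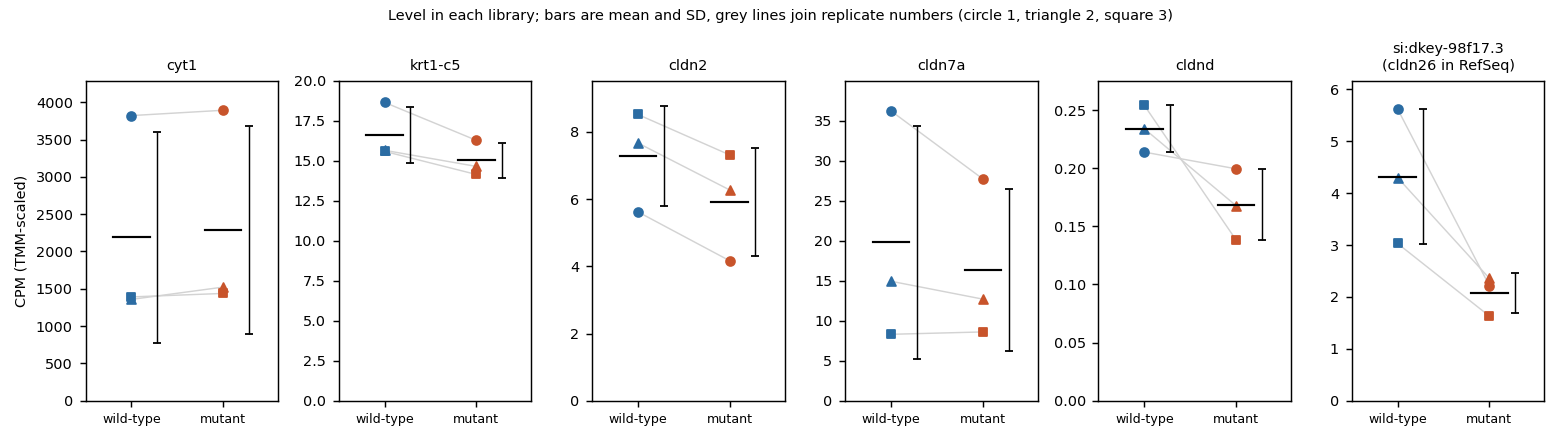
Level in CPM of 5 members and of si:dkey-98f17.3 in each library, with a panel per gene, axes that start at 0, horizontal bars at the mean and vertical bars for the SD of 3 libraries. cyt1 shows the gap between replicate 1 and the other libraries in both genotypes, and cldn2 and krt1-c5 show mutant libraries below the wild-type library of the same number.

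A further 8 claudin genes were listed under other names in the count table, outside the rule, and were identified by gene identifier or through RefSeq's GRCz12tu table. In these, 0 of 8 were called between genotypes by edgeR with or without the block, beside 0% of all genes, and in 2 of 8 the genotypes did not overlap, beside 2.04% of all genes. Those were si:ch211-181l5.2 (cldn10d) and si:dkey-98f17.3 (cldn26). si:ch211-181l5.2 had 28 to 81 counts per library and a blocked log2 difference of -0.17 (SE 0.21). It measured 0.6823 to 0.7348 CPM in wild-type and 0.5989 to 0.6821 CPM in mutant, so its groups nearly touched. The other gene is described further, and was chosen after its values were seen. si:dkey-98f17.3 had 368, 441 and 334 counts in wild-type and 100, 211 and 177 in mutant, or 5.62, 4.30 and 3.03 CPM in wild-type and 2.22, 2.36 and 1.63 CPM in mutant. All 3 mutant libraries were lower than all 3 wild-type libraries, and the pairs differed by -1.33, -0.86 and -0.88 on the log2 scale. edgeR gave a log2 difference of -1.06 (SE 0.28) without the block and of -1.02 (SE 0.13) with it, with adjusted p of 0.999987 and 0.334. DESeq2 with the block called it, with -1.02 (SE 0.19) and an adjusted p of 0.00024. Over all fits other than the unblocked edgeR fit just given, further unblocked edgeR fits included, the adjusted p ran from 0.00024 to 0.999999. In GRCz12tu this gene lies on the srrm4 chromosome with 39 protein-coding genes between them. krt1-c5 and cldn15b are on that chromosome too, with 988 and 787 protein-coding genes between them and srrm4. Linkage to the mutant allele and the genotype itself cannot be told apart in these libraries.

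Genes of the junctions and layers around these families showed no call between genotypes either. Among 20 tight junction partners, the scaffold and membrane proteins that claudins bind or sit beside, 0 were called and 1 had an unadjusted p under 0.05 in the blocked edgeR fit, near the 4.6% of all genes at that p. That gene was f11r.1, a junctional adhesion molecule, with a log2 difference of 0.11 (SE 0.04). Among 17 genes of desmosomes, which anchor keratin filaments at cell contacts, and of the cornified envelope, 0 were called and 4 had an unadjusted p under 0.05, all higher in mutant, beside the 4.6% of all genes at that p. They were the desmosomal cadherin dsg2.1 (0.16, SE 0.05), the envelope linker evpla (0.13, SE 0.04) and the plakophilins pkp1b (0.16, SE 0.06) and pkp3a (0.11, SE 0.04). The list as a whole had 9 higher and 8 lower, with a median log2 difference of 0.01.

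Among 15 epithelial adhesion and transcription factor genes, 0 were called and grhl3, a transcription factor of the surface epithelium, had an unadjusted p of 0.0069 in the blocked edgeR fit. It measured 11.4, 9.41 and 12.3 CPM in wild-type and 9.99, 6.93 and 10.5 CPM in mutant, lower in each pair with overlapping groups, for a log2 difference of -0.29 (SE 0.08). Genes that define epithelium were present in all libraries, with epcam at 157 to 228 CPM, cdh1 at 76.1 to 93.7 CPM and tp63, a basal layer factor, at 50.3 to 67.7 CPM. Ionocyte markers summed to 390 to 447 CPM in wild-type and 398 to 437 CPM in mutant. Of the 10, 6 were higher and 4 lower in mutant in the blocked edgeR fit, and 0 were called. Only trpv6 had an unadjusted p under 0.05 in that fit, at 0.0327, beside 4.6% of all genes. Its log2 difference was 0.17 (SE 0.06). Mucous cell markers summed to 152 to 174 CPM in wild-type and 147 to 179 CPM in mutant.

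By replicate number, keratins were called more often than genes at large and claudins about as often. Most keratins were higher in the replicate 1 libraries of both genotypes, including the periderm keratins and the 1 basal keratin of the gene list. Of 14 basal epidermis and hemidesmosome genes, in contrast, 11 were lower in replicate 1. Claudins went both ways. Levels were compared over replicate numbers with the genotype as a covariate, by edgeR's quasi-likelihood F test with Benjamini-Hochberg adjustment. The test covers all replicate numbers at once, so a gene that differs only between replicates 2 and 3 can be called too. The log2 ratio of replicate 1 to the mean of replicates 2 and 3 gave the direction. The test called 20 of 22 keratins and 18 of 32 claudins, against 57.6% of all genes tested, so the claudin share was near the background. All 20 called keratins were higher in replicate 1, with a median log2 ratio of 0.68 over all 22. Of the called claudins 13 were higher and 5 lower by that ratio, and the median over all 32 was 0.13. The 13 include cldn23a, at 0.13 (SE 0.07), whose replicate 1 lay between replicates 2 and 3 in both genotypes. Over all genes the calls split into 6980 higher and 7273 lower, and the median was -0.01. Without krtcap2 the count was 19 of 21 keratins, and without cldnd1a and cldnd1b it was 17 of 30 claudins.

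This comparison depends on the scaling. With library totals in place of TMM the median of all genes moved from -0.01 to -0.33, and the calls over all genes became 3572 higher and 12022 lower. The keratin calls became 15 higher and 2 lower, the median being 0.36, and the claudin calls 7 higher and 16 lower, the median turning to -0.20. The change of scaling moves the ratios of all genes by nearly the same amount. By construction it therefore leaves the distance of each family from the median of all genes nearly unchanged. The sign turned under library totals for 3 called keratins (krtcap2, krt222 and krt1-c5) and 4 called claudins (cldni, cldne, cldnd1a and cldn23a), whose TMM ratios were small.

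In both genotypes, 5 of 22 keratins and 4 of 32 claudins were more than 2-fold higher in replicate 1 than in the mean of replicates 2 and 3, against 5.46% of all genes. By the same measure 0 keratins were more than 2-fold lower, and 1 claudin, cldn15b, against 5.01% of all genes. The 5 keratins were krt17 with a log2 ratio of 2.08 (SE 0.04), krt18a.2 with 2.08 (SE 0.18), cyt1 with 1.43 (SE 0.04), cyt1l with 1.41 (SE 0.04) and krtt1c19e with 1.23 (SE 0.04). Their edgeR adjusted p values were 9.1e-07, 0.00023, 2.9e-06, 2.6e-06 and 3.7e-06. They are keratins of periderm, basal layer and simple epithelium by the lists or by name. krt4 had a ratio of 0.92 (SE 0.03), and krt8 had the smaller ratio of 0.43 (SE 0.03).

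The 2 keratins that were not called were krt1-19d and krt98. krt1-19d measured 120, 128 and 121 CPM in wild-type and 115, 121 and 124 CPM in mutant, nearly level across all 6 libraries, with a ratio of -0.07 (SE 0.04). krt98 measured 1.53, 1.86 and 2.03 CPM in wild-type and 1.51, 1.48 and 1.90 CPM in mutant, with a ratio of -0.26 (SE 0.16). Under library totals both were called as lower in replicate 1.

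**Figure D4:**
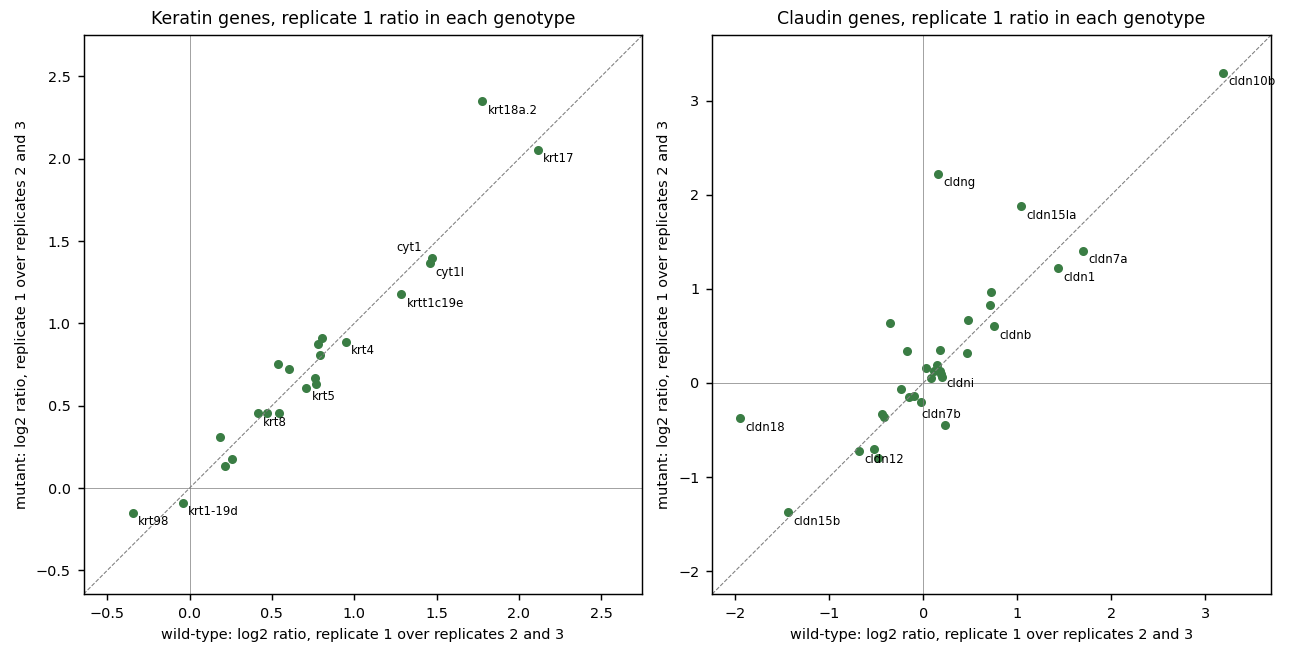
Log2 ratio of replicate 1 to the mean of replicates 2 and 3 for each keratin (left) and claudin (right), wild-type on the x axis and mutant on the y axis, with a dashed line where they are equal. Keratins run along the line from about krt98 to krt17, and claudins spread to both sides of 0, with cldn10b at the top and cldn15b at the bottom.

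The claudins higher in replicate 1 were of several kinds. cldn10b (ENSDARG00000104528) had 1.83, 0.253 and 0.127 CPM in wild-type and 1.95, 0.190 and 0.166 CPM in mutant, far higher in replicate 1 of each genotype, with a log2 ratio of 3.38 (SE 0.25). The other 3 above 2-fold were cldn7a with 1.56 (SE 0.09), cldn15la with 1.47 (SE 0.21) and cldn1 with 1.33 (SE 0.07). cldnb had a ratio of 0.68 (SE 0.05). cldng, which rests on few counts, had a ratio of 1.29 (SE 0.78) and was not called.

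The 5 claudins called lower in replicate 1 were cldn15b, cldn12, cldn2, cldn11a and cldna. cldn15b measured 3.80, 10.8 and 9.85 CPM in wild-type and 3.94, 11.4 and 9.29 CPM in mutant, lowest in replicate 1 of each genotype, with a ratio of -1.41 (SE 0.09). cldn12 measured 30.9, 53.1 and 46.4 CPM in wild-type and 32.3, 53.9 and 52.6 CPM in mutant, again lowest in replicate 1, with a ratio of -0.70 (SE 0.05). The ratios of the other 3 were -0.60 for cldn2, -0.39 for cldn11a and -0.39 for cldna. cldn18 at -1.17 (SE 0.46) and cldn23b at -0.63 (SE 0.20) also had low ratios but were not called. cldn5a and cldn5b were not called, with ratios of 0.07 (SE 0.06) and -0.11 (SE 0.07).

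Some of these calls were lost when 1 library was left out. Without wild-type replicate 1 the test called 15 keratins and 10 claudins, and without mutant replicate 1 it called 15 keratins and 9 claudins, while all genes fell from 14253 calls to 7940 and 7965. krt5, krt222, krt1-c5, krtcap2, cldni, cldne, cldnd1a, cldnc, cldn19, cldnf and cldna lost their calls when either of those libraries was left out. krt99 and cldn11a lost theirs without wild-type replicate 1 only, and krt96, cldn15a and cldn2 without mutant replicate 1 only. Leaving out replicate 3 of either genotype ended the calls of krtcap2, krt1-c5, cldni, cldne and cldna, and leaving out wild-type replicate 2 those of cldne and cldnd1a. The largest ratios of each family, from krt17 to krtt1c19e and from cldn10b to cldn1, kept their calls in both.

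The other epithelial lists were mixed, and their directions are again those of the replicate 1 ratio under TMM. cgnb (0.10, SE 0.07), grhl3 (0.15, SE 0.08) and atp1b1b (0.02, SE 0.04) count below as called higher. evpla (-0.17, SE 0.04) counts as called lower. In each of the genes just named, replicate 1 lay between replicates 2 and 3 in both genotypes. The lists' counts of calls stand against the 57.6% called over all genes. Those of the tight junction partners and of the basal epidermis and hemidesmosome genes were near it. Of 20 tight junction partners 11 were called, 9 of them higher in replicate 1, with a median log2 ratio of 0.25 that turned to -0.07 under library totals. Of 17 desmosome and cornified envelope genes 13 were called, 9 of them higher, with a median of 0.24 that turned to -0.09 under library totals. Of 15 epithelial adhesion and transcription factor genes 10 were called, 9 of them higher, with a median of 0.34 that fell to 0.01 under library totals. epcam, an epithelial adhesion protein, had a ratio of 0.46 (SE 0.04). Of 14 basal epidermis and hemidesmosome genes 8 were called, and 7 of these were lower in replicate 1, with a median of -0.18, or -0.51 under library totals. The exception was col17a1a, a hemidesmosome collagen, at 0.90 (SE 0.05), and frem2b, a basement membrane protein of the Fraser complex, was at -0.95 (SE 0.07). Of 10 ionocyte markers 9 were called, 7 of them higher, with a median of 0.54, or 0.21 under library totals. atp6v1aa, at 196 to 291 CPM, made up much of their summed level and went the other way, at -0.50 (SE 0.04). Of 4 mucous cell markers 4 were called, 3 of them lower, with a median of -0.72, or -1.05 under library totals. Among them muc5.1 was at -1.30 (SE 0.06) and agr2 at 0.57 (SE 0.05). muc5.2, counted as lower, was at -0.15 (SE 0.07), with replicate 1 between replicates 2 and 3 in both genotypes.

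Markers of other tissues were also compared by replicate number, again beside 57.6% called over all genes. Posterior hox genes had 13 of 16 called, all higher in replicate 1, with a median log2 ratio of 2.74, and skeletal muscle markers 11 of 12 called, 10 of them higher, with a median of 2.1. Notochord markers had 5 of 6 called, all higher, with a median of 1.48 and summed levels of 690 and 662 CPM in replicate 1 against 139 to 214 CPM in the others. Pronephros and intestine markers had 4 of 8 called, no more than the background, all higher, with a median of 0.77 and sums of 1961 and 1978 CPM against 366 to 469 CPM. Neuron markers had 6 of 8 called, all lower, with a median of -0.82. The medians of these 5 lists kept their sign under library totals. Medians were smaller in size for lens (-0.38), blood vessel (-0.20), inner ear (-0.19) and myelin markers (-0.06). Of these, 6 of 7, 6 of 8, 3 of 6 and 4 of 6 were called, with calls in both directions in each list. Lens markers nonetheless summed to more in replicate 1, at 3255 and 3433 CPM against 2630 to 2799 CPM. No marker of these lists was at 0 in all libraries, the untested posterior hox genes included. For the tested markers the expression filter had fixed this in advance. Their part in the keratin and claudin ratios was not tested.

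**Figure D5:**
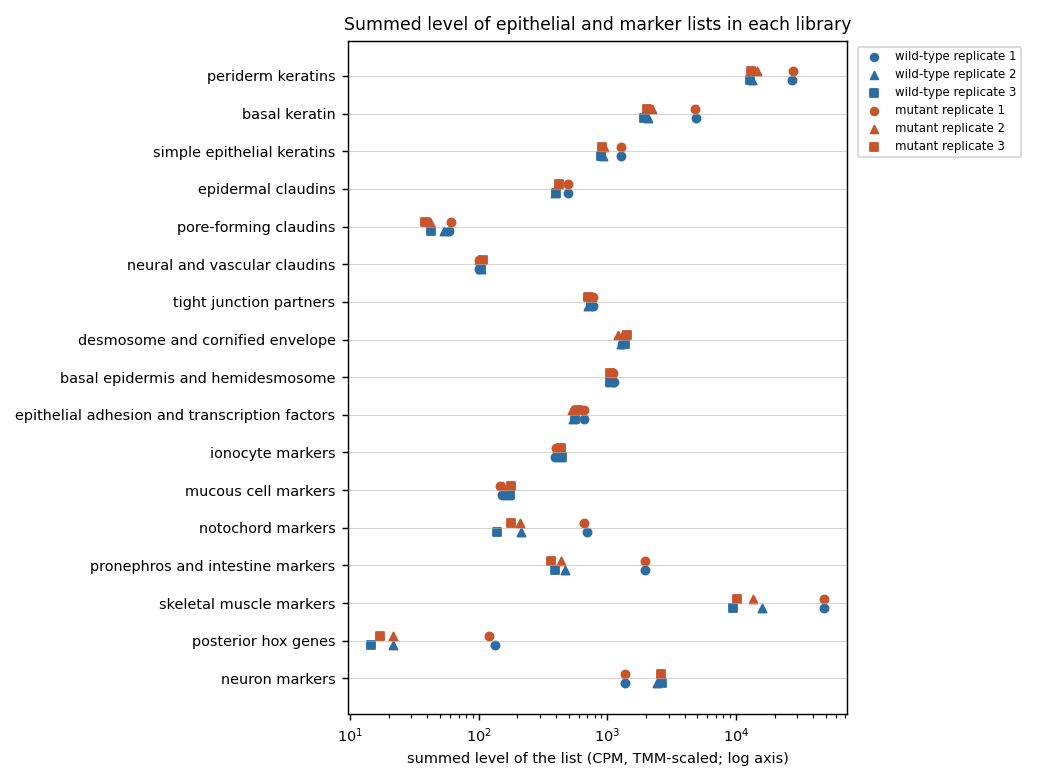
Summed level of the keratin and claudin lists and of marker lists in each library, in CPM on a log axis, with colour for genotype and marker shape for replicate number. The replicate 1 circles stand to the right for keratins, muscle, notochord, pronephros and intestine, and posterior hox genes, and to the left for neuron markers.

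Many members are close neighbours in the genome, named here from RefSeq's GRCz12tu table, in which 56 of the 57 were matched. The longest run of neighbours was krt1-19d, krtt1c19e, krt92, cyt1l, cyt1, krt17 and krt91, whose replicate 1 log2 ratios ran from -0.07 for krt1-19d to 2.08 for krt17. A run of krt5, krt8, krt18a.1 and krt18a.2 had ratios from 0.43 to 2.08, and krt94, krt98, krt15 and krt99 from -0.26 to 0.86. Of claudins, cldnj, cldne, cldnf and cldna had ratios from -0.39 to 0.40, and cldnh, cldnc, cldnb and cldnd from 0.05 to 0.68. Genes beside each other thus differed in ratio about as widely as the family did in the longest run. Neighbouring copies can be similar in sequence, and how the counting treated reads that match several genes is not given in the sources used here, so the split between such genes is uncertain.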

How the data were processed

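RNA was isolated with the Qiagen RNeasy mini kit or the Zymo Direct-zol Microprep kit, and libraries were made from 1 microgram of total RNA with the TruSeq stranded mRNA kit, per the labels' protocols. Which library had which kit is not stated. The authors deposited whole-number read counts per gene for 32520 genes in 6 libraries, together with normalized values (a signal scaled by size factors), which the authors deposited as a second table. The submitters' processing notes name STAR 2.7.3, featureCounts 1.6.4, DESeq2 and GRCz11. The tools' settings, strand included, are not given in those sources. No column of either table was left out.

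From the counts, edgeR 4.0.16 quasi-likelihood fits (R 4.3.3) with TMM scaling and edgeR's expression filter gave the genotype comparison over all 6 libraries, 3 against 3, and the replicate number comparison with genotype as a covariate. The p-values of these fits were adjusted by the Benjamini-Hochberg method over 24765 genes, and those of each alternative over the genes it kept. DESeq2 1.42.0, limma 3.58.1, other scalings and filters, left-out libraries and the deposited normalized values were alternatives. Pair values and libraries' ratios use log2 CPM with a prior count of 2. No library repeated another.

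Replicate numbers come from the labels. Deviations of same-numbered libraries from their group means correlated at 0.863, 0.579 and 0.744, all over 0.1, so the numbers were taken as pairs. Wild-type replicate 2 with mutant replicate 3, at 0.418, and wild-type replicate 3 with mutant replicate 2, at 0.365, also passed that limit. With replicate 1 apart from the others, the limit cannot decide whether replicates 2 and 3 are matched by number. Members and gene lists were chosen with earlier results of these data known. Genes described were the 8 with the highest mean CPM of each family and the 5 with the smallest p between genotypes in each fit. Also described were the 5 highest and 5 lowest replicate 1 ratios, and up to 3 genes of a pathway list by p. For the desmosome and cornified envelope list all 4 genes at an unadjusted p under 0.05 in the blocked edgeR fit were named. Others were named for their role after values were seen. Transcript lengths were not used, so levels are not compared between genes. Older and newer names were matched by gene identifier or through RefSeq's GRCz12tu table.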

Additional observations from a re-analysis of the deposited data

How the results depend on the processing

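The count of keratins and of claudins called between genotypes was 0 in all fits run, with and without the replicate block, under other scalings, filters and tools and without each library in turn. Over all genes that count was 0 in edgeR and 18 in DESeq2 with the replicate block, and 2 in edgeR with the replicate block when the pair of replicate 2 was left out. The cause was not tested. Without the pair of replicate 2 the blocked log2 difference turned to 0.015 for cldn15lb and 0.022 for krt92, and without the pair of replicate 3 to 0.011 for krt222. With 1 library left out and no block, the genotype difference ran from -0.27 to 0.50 for srrm4, from -0.36 to 0.13 for krt92, from -0.57 to 0.73 for cyt1, from -0.32 to 0.43 for krt4, from -0.58 to 0.69 for cyt1l, from -0.40 to 0.27 for krt97 and from -0.89 to 0.49 for cldn7a. The keratins moved together in these fits. Without mutant replicate 1 their split was 0 higher and 22 lower, with a median of -0.25. Without wild-type replicate 1 it was 18 higher and 4 lower, with a median of 0.28. The design is unbalanced over replicate numbers when 1 library is left out. With the block, leaving out a pair gave keratin splits of 11 to 11 or 12 to 10. By replicate number, leaving out 1 library gave 7940 to 16891 calls over all genes, 15 to 20 keratins and 9 to 21 claudins. DESeq2's likelihood ratio test called 18 keratins and 14 claudins. Library totals alone turned the replicate 1 ratio to -0.15 for krtcap2, -0.11 for krt1-c5, -0.080 for krt222, -0.18 for cldni, -0.18 for cldne and -0.21 for cldnh. Claudins under 1 CPM rest on few counts, which limits their precision.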
